A study of Homo sapiens with 2 samples.

Results

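Collagens, laminins and matrix glycoproteins were examined in Molm13, an established line of acute myeloid leukemia (AML) with a KMT2A::MLLT3 fusion. The members were the rows of the deposited gene table whose symbol is a collagen alpha chain, a laminin chain or 1 of 15 named glycoproteins and proteoglycans, which gave 71 genes of 50868. Of these, 44 were collagen chains, 12 were laminin chains and 15 were the named glycoproteins and proteoglycans. RNA-seq was performed on 2 libraries, 1 of cells that received the control vector (Vector) and 1 of cells given the UNC5B overexpression construct (OE-UNC5B). According to the methods, the construct was a lentiviral plasmid with a CMV promoter, a FLAG tag, mCherry and puromycin resistance, and infected cells were selected with puromycin. The sources used here do not say whether the cells were a clone or a pool.

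The extracellular matrix is the scaffold that cells secrete and hold on to. Collagens are built from 3 chains wound into a triple helix, and they form fibrils, basement membrane networks or membrane-anchored proteins. Laminins are trimers of an alpha, a beta and a gamma chain and organise basement membranes, while glycoproteins such as fibronectin and the tenascins link the scaffold to integrins. In bone marrow this matrix is made mostly by stromal, endothelial and bone cells. Leukemia cells bind to it through integrins and CD44.

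Depth was 13715566 counted reads for Vector and 15637137 for OE-UNC5B, and scaling used TMM factors, which correct library totals for composition. For UNC5B itself, each library had 0 reads, and the overexpression is not visible in these values. The second library is therefore called the library labelled OE-UNC5B, and every direction given here rests on the labels. All 6 AML cell markers (CD33, MPO, PTPRC, FLT3, SPI1 and LYZ) were well covered, with 1592 to 51742 reads in Vector against 1553 to 23700 in the library labelled OE-UNC5B. Among the 6, 2 were lower by over 2-fold there, the granule protein genes MPO (3363 and 1553 reads, log2 difference -1.35, 95% interval -1.44 to -1.26) and LYZ (51742 and 23700 reads, -1.36, -1.39 to -1.34). The list was split, with 3 below 0 and 3 above and a median log2 difference of -0.05. PTPRC was higher (1592 and 3102 reads, 0.73, 0.64 to 0.81), as were FLT3 (0.42, 0.36 to 0.47) and CD33 (0.14, 0.05 to 0.23), while SPI1 was at -0.23 (-0.30 to -0.16). The part of these AML markers in the differences of the matrix genes was not tested. With 1 library per group, no difference below has a replicate check. No test was run, and each 95% interval (Clopper-Pearson, from the reads) covers counting error only. The genes were chosen by name, but the family was selected on the measured differences in reads between these same libraries, so the values are a description and not evidence for the choice.

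Most members had under 50 reads over both libraries, as did most genes. Of the 71 members, 22 had 0 reads in both libraries, 13 had 1 to 9 reads over both, 21 had 10 to 49 reads and 15 had 50 or more. Over all 50868 genes, 28730 had 0 reads, 6754 had 1 to 9, 3094 had 10 to 49 and 12290 had 50 or more. A count of 0 allows a level of up to 3 reads, which as CPM (TMM-scaled counts relative to library size) is 0.222 for Vector against 0.189 for the library labelled OE-UNC5B. In the deposited FPKM, which scales reads to a length for each gene, 6 members reached 1 in either library. They were COL23A1, COL9A2, COL8A2, COL27A1, LAMC1 and CCN3. The lengths behind FPKM exceed the canonical GENCODE transcripts unevenly. They were 30720 against 8390 bases for FN1, 9353 against 5490 for COL3A1 and 3066 against 2463 for CCN3. The count of 6 and FPKM levels compared between genes therefore depend on these lengths. The silent members included elastin (ELN), periostin (POSTN), decorin (DCN), fibulin 1 (FBLN1), the basement membrane chains COL4A3, COL4A4 and COL4A6, and laminin chains LAMA1 and LAMB4.

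Detection differed on 1 side only. There were 10 members with reads in Vector but 0 in the library labelled OE-UNC5B, and 0 members with the opposite pattern, although the library labelled OE-UNC5B was the deeper. The 10 make 20.4% of members with reads. Over all genes with reads, 8.68% had reads in Vector alone and 8.55% in the library labelled OE-UNC5B alone. The highest of the 10 was LAMB1, with 27 reads in Vector.

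**Figure D1:**
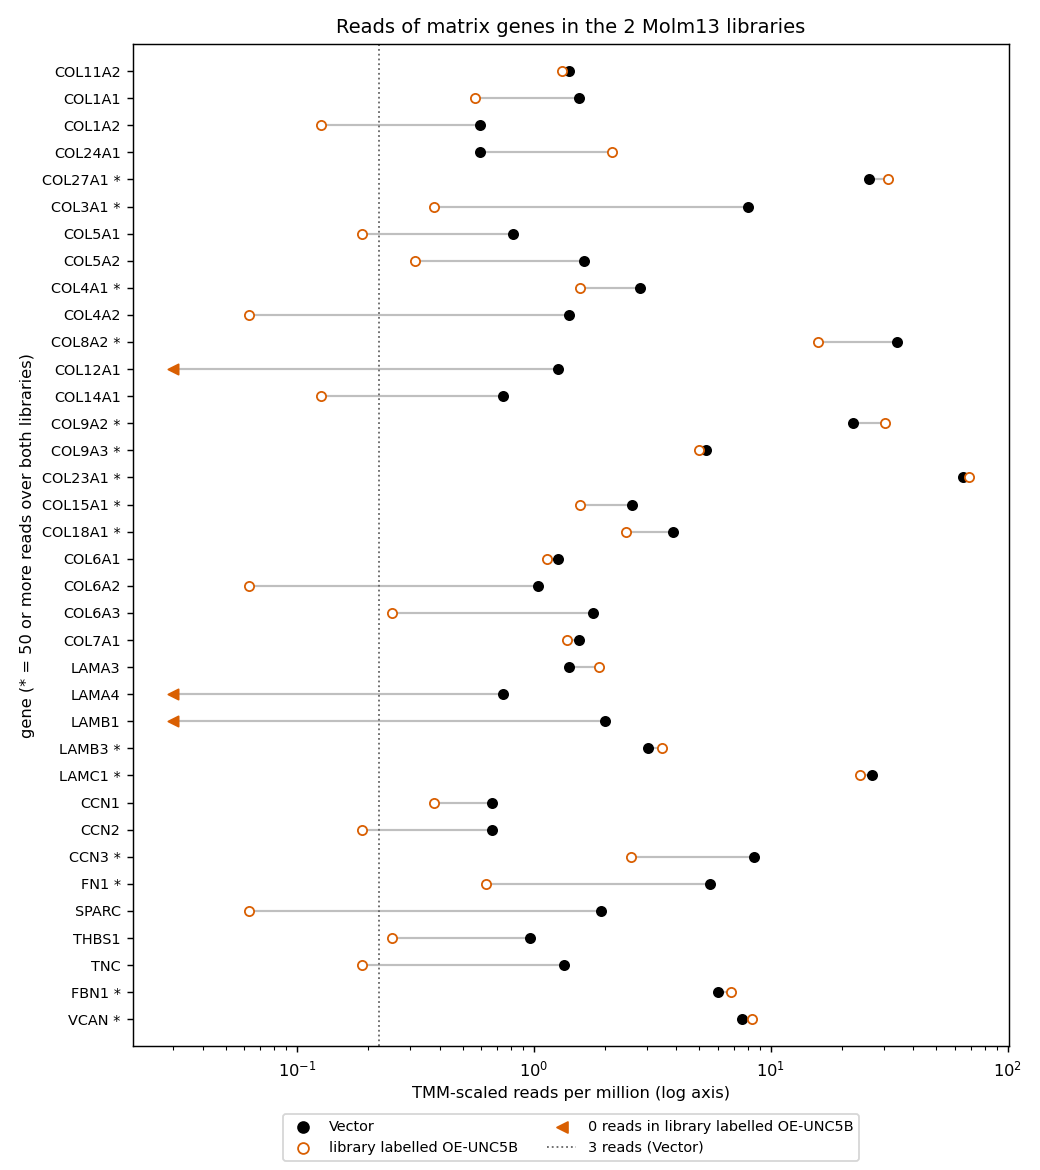
TMM-scaled CPM (log axis) of the 36 members with 10 or more reads over both libraries, ordered by role, with 1 point per library, a triangle for 0 reads and a dotted line at 3 reads in Vector. COL23A1, COL9A2, COL27A1 and LAMC1 lie far to the right with their points close together, while COL3A1, FN1, SPARC and LAMB1 have points far apart, with the library labelled OE-UNC5B lower.

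Well-measured genes were separated from genes under 50 reads before the libraries were compared. Of the 15 members with 50 or more reads, 4 were lower by at least 2-fold in the library labelled OE-UNC5B and 0 were higher by 2-fold. Among all 12290 genes with 50 or more reads, 2.41% were lower and 2.94% higher by 2-fold. The 4 were COL3A1, FN1, CCN3 and COL8A2. Fewer cells of a type and less RNA per cell cannot be told apart in bulk RNA. The median log2 difference of the 15 members was -0.17, beside -0.01 over all genes in that class. It was -0.01 over the 10 members with 100 or more reads, and it turned to 0.0051 and 0.016 over the 6 members with at least 1 FPKM when FPKM was used with 0.1 or 1 added. Of the 21 members with 10 to 49 reads, 15 were lower by 2-fold and 1 was higher, beside 13.9% lower and 14.5% higher among the 3094 genes in that class. With both classes joined, 19 of 36 members were lower and 1 higher by 2-fold, beside 4.72% and 5.27% of the 15384 genes with 10 or more reads. For 13 of the 15 members with 10 to 49 reads and for the 1 higher gene, COL24A1, the interval from the reads excluded no difference, beside 8.79% of genes lower and 7.27% higher by that stricter rule in the class, and 3.69% and 3.81% among all genes with 10 or more reads. The median over these 21 members was -1.97, and it was also -1.97 with genes at 0 reads set to their bound against 3 reads. Just inside the limit of 50 reads were COL15A1 (60 reads over both libraries) and COL4A1 (63 reads), and just outside were LAMA3 (49 reads) and COL7A1 (43 reads).

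**Figure D2:**
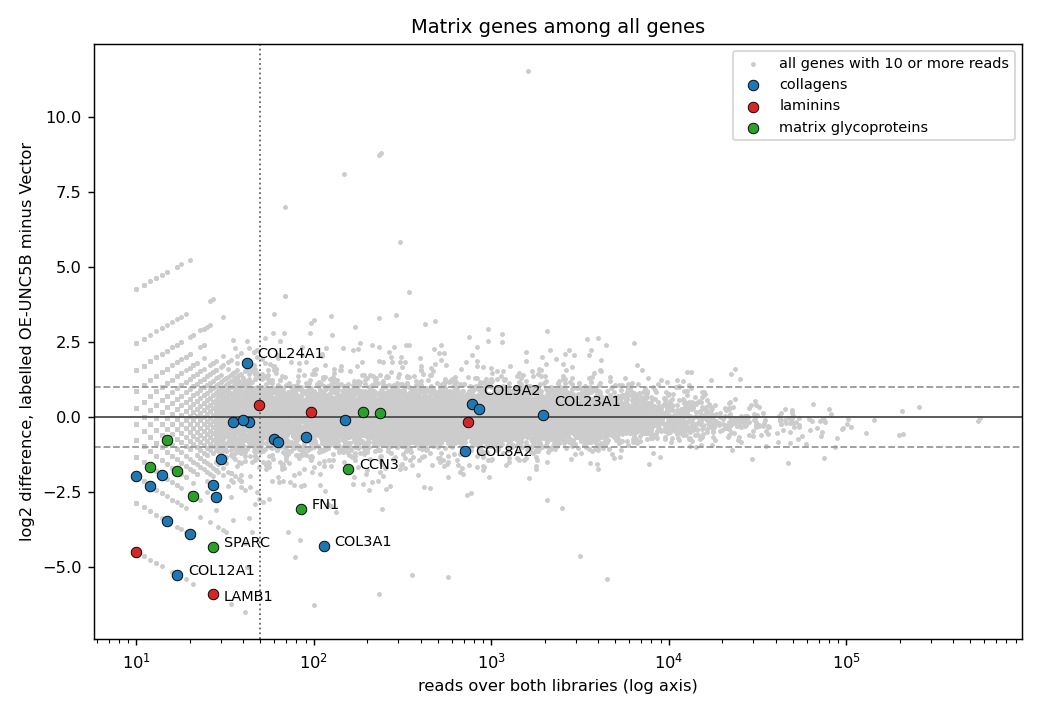
Log2 difference between the libraries against reads over both libraries (log axis) for all genes with 10 or more reads in grey, with members coloured by family, dashed lines at 2-fold and a dotted line at 50 reads. To the right of 50 reads, COL3A1 (-4.29), FN1 (-3.08) and CCN3 (-1.71) lie below most genes and COL23A1 (0.08) lies near 0; to the left, 15 of 21 members lie below the lower dashed line.

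The fibrillar collagens, which form the rope-like fibres of connective tissue, held the largest difference among well-measured members. COL3A1 (ENSG00000168542), the chain of type III collagen, is encoded on the plus strand of chromosome 2 (GRCh38, bases 188974320 to 189012746). It had 108 reads in Vector against 6 in the library labelled OE-UNC5B, a log2 difference of -4.29 (95% interval -5.88 to -3.24). In FPKM its level was 0.842 in Vector against 0.0410 in the library labelled OE-UNC5B. COL5A2, a chain of the type V collagen that nucleates fibrils, lies 19149 bases from COL3A1 on the opposite strand. COL5A2 had 22 reads in Vector against 5 in the library labelled OE-UNC5B, a log2 difference of -2.26 (-4.13 to -0.94). Its partner chain COL5A1 had 11 and 3 reads, a 4.32-fold lower level (1.14 to 24.1). In the library labelled OE-UNC5B all of these chains were lower.

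Type I collagen, the main collagen of bone, was barely present. COL1A1 had 21 reads in Vector against 9 in the library labelled OE-UNC5B, a log2 difference of -1.41 (-2.77 to -0.27). COL1A2, the second chain of the same molecule, had 8 and 2 reads, and its interval of 0.941 to 45.6-fold lower includes no difference. Other fibrillar chains took another course. COL27A1, a cartilage-associated fibrillar chain, had 350 reads in Vector against 499 in the library labelled OE-UNC5B, a log2 difference of 0.27 (0.07 to 0.48). COL24A1, a fibrillar chain known from developing bone, had 8 and 34 reads, a log2 difference of 1.79 (0.71 to 3.17), and was the 1 member with 10 or more reads that was higher by 2-fold. COL11A2, with 19 and 21 reads, was nearly level at -0.09 (-1.06 to 0.88). Summed over the 11 fibrillar chains, reads were 549 in Vector against 580 in the library labelled OE-UNC5B, a scaled ratio of 0.896 (0.796 to 1.01), since COL27A1 outweighs the chains that were lower.

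Among network collagens, COL8A2, a short chain that forms hexagonal lattices in the cornea and around vessels, was the only one above 100 reads. It had 460 reads in Vector against 251 in the library labelled OE-UNC5B, a log2 difference of -1.11 (-1.34 to -0.89). The basement membrane chains COL4A1 and COL4A2 assemble together and are transcribed in opposite directions from neighbouring starts on chromosome 13. COL4A1 had 38 reads in Vector against 25 in the library labelled OE-UNC5B, a log2 difference of -0.83 (-1.63 to -0.08). COL4A2 had 19 reads and 1 read, a 22.4-fold lower level with an interval of 3.56 to 930.4. Both chains were lower, and their intervals do not overlap. In the deposited table their loci overlap by 1338 bases.

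The fibril-associated collagens sit on the surface of fibrils. COL9A2, a type IX chain found in cartilage, had 299 reads in Vector against 482 in the library labelled OE-UNC5B, a log2 difference of 0.45 (0.24 to 0.66). COL9A3, another type IX chain, had 72 and 79 reads and a log2 difference of -0.10 (-0.58 to 0.38). COL9A1, the third chain of type IX, had 0 reads in both libraries. COL9A2 thus stood at 3.33 FPKM in Vector and COL9A3 at 0.589, with no partner COL9A1 detectable at this depth. COL12A1, a fibril-associated chain of tendon and ligament, had 17 reads in Vector against 0 in the library labelled OE-UNC5B. With that 0 set to a floor of 3 reads, COL12A1 was 6.68-fold lower. Its interval reached a log2 difference of -2.28, which is 4.86-fold lower. COL14A1 had 10 and 2 reads, a 5.89-fold lower level (1.26 to 55.3). The ordinary connective tissue chains of this group, COL12A1 and COL14A1, were low where COL9A2 and COL9A3 were not.

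COL23A1, a membrane-anchored collagen whose ectodomain can be shed, was the most abundant member. It is encoded on the minus strand of chromosome 5 (GRCh38, bases 178237618 to 178590555) and had 874 reads in Vector against 1090 in the library labelled OE-UNC5B. The log2 difference was 0.08 (-0.05 to 0.21) and the FPKM 13.4 and 14.7, which in Vector was higher than 88.3% of genes with reads. The interval leaves room for a difference of at most 1.16-fold upward. The endostatin-type collagens COL15A1 and COL18A1, which carry cleavable anti-angiogenic ends, had 35 and 52 reads in Vector against 25 and 39 in the library labelled OE-UNC5B. Their log2 differences were -0.71 (-1.52 to 0.06) and -0.64 (-1.29 to -0.03). For COL18A1, 18.5% of the annotated exon bases are shared with SLC19A1, and its reads are uncertain for that reason.

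Type VI collagen forms beaded filaments around cells and needs 3 different chains. COL6A3 had 24 reads in Vector against 4 in the library labelled OE-UNC5B, a log2 difference of -2.67 (-4.81 to -1.28). COL6A2 had 14 reads and 1 read, a 16.5-fold lower level (2.51 to 697.7). COL6A1, encoded 93046 bases from COL6A2 on the same strand, had 17 and 18 reads and a log2 difference of -0.15 (-1.19 to 0.89). The intervals of COL6A1 and COL6A2 do not overlap, although the genes are neighbours. COL7A1, the anchoring fibril collagen of skin, had 21 and 22 reads and a log2 difference of -0.17 (-1.10 to 0.76).

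**Figure D3:**
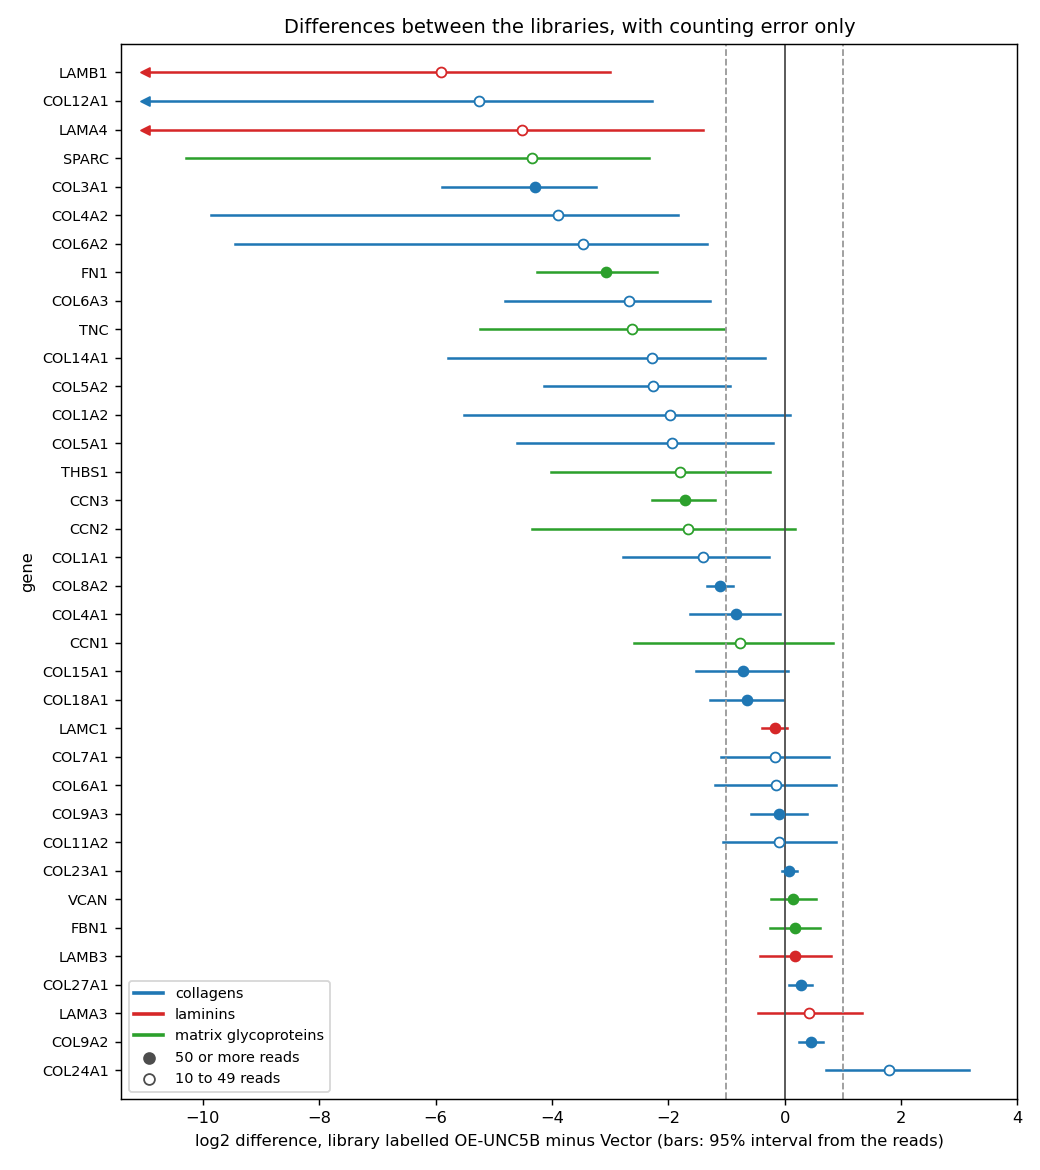
Log2 difference (library labelled OE-UNC5B minus Vector) of the 36 members with 10 or more reads, with 95% intervals from the reads, dashed lines at 2-fold, filled points for 50 or more reads and open points for 10 to 49 reads. The points of LAMB1, COL12A1 and LAMA4, with 0 reads in the library labelled OE-UNC5B, depend on the 0.5 reads added and their bars are open to the left; COL24A1 (1.79) is the only point beyond 2-fold on the higher side.

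Of the 12 laminin chains, 0 of 2 with 50 or more reads and 2 of 3 with 10 to 49 reads were lower by 2-fold. LAMC1, the gamma 1 chain shared by most laminins, was the best measured, with 361 reads in Vector against 378 in the library labelled OE-UNC5B. The log2 difference was -0.17 (-0.38 to 0.04). LAMB3, the beta 3 chain of epithelial laminin, had 41 and 55 reads and a log2 difference of 0.18 (-0.42 to 0.81). LAMA3, the alpha 3 chain of the same trimer, had 19 and 30 reads and a log2 difference of 0.41 (-0.45 to 1.33). LAMB1 (ENSG00000091136), the beta 1 chain of widespread laminins, had 27 reads in Vector against 0 in the library labelled OE-UNC5B. With that 0 set to the floor of 3 reads, LAMB1 was 10.6-fold lower. Its interval reached a log2 difference of -3.01, which is 8.05-fold lower. LAMA4, the alpha 4 chain of vessel and muscle basement membranes, had 10 and 0 reads. By the same floor it was 3.93-fold lower, with an interval reaching -1.40 (2.64-fold). In FPKM, LAMC1 stood at 2.74 in Vector against 0.161 for LAMB1, 0.481 for LAMB3 and 0.0824 for LAMA3.

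Adhesive and matricellular glycoproteins had the largest summed difference, as a ratio, of the 12 role groups. Their 8 genes held 265 reads in Vector against 68 in the library labelled OE-UNC5B, a 4.59-fold lower scaled sum (3.51 to 6.09). FN1, fibronectin, a ligand of the integrins alpha 5 beta 1 and alpha 4 beta 1, had 75 and 10 reads and a log2 difference of -3.08 (-4.26 to -2.19). CCN3, a matricellular growth regulator, had 115 and 41 reads and a log2 difference of -1.71 (-2.28 to -1.20). In FPKM, CCN3 stood at 2.73 in Vector and 0.855 in the other library, and FN1 at 0.178 and 0.0208. The study itself picked FN1, CCN3 and SPARC out of these libraries, so their direction is not independent evidence.

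SPARC, the collagen-binding glycoprotein osteonectin, had 26 reads in Vector against 1 in the library labelled OE-UNC5B, a 30.6-fold lower level (5.03 to 1256). TNC, tenascin C, had 18 and 3 reads, a 7.07-fold lower level (2.06 to 37.5). THBS1, thrombospondin 1, had 13 and 4 reads and a log2 difference of -1.80 (-4.01 to -0.24). The immediate early matricellular genes were at the limit of detection. CCN1 had 9 and 6 reads and CCN2 had 9 and 3 reads, and both intervals included no difference. For CCN3, 7.80% of exon bases are shared with another annotated gene, for THBS1 7.58% and for CCN2 11.9%, and the use of strand in counting is not stated, so part of these reads could belong to the neighbours.

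The elastic fibre protein and large proteoglycan that were well measured showed no difference of 2-fold. FBN1, fibrillin 1, the core of microfibrils, had 81 reads in Vector against 108 in the library labelled OE-UNC5B, a log2 difference of 0.18 (-0.25 to 0.61). VCAN, versican, a hyaluronan-binding proteoglycan made by myeloid cells, had 102 and 133 reads and a log2 difference of 0.15 (-0.24 to 0.53). The 13 members with 1 to 9 reads held 37 reads in Vector against 14 in the library labelled OE-UNC5B. By log2 difference 11 lay below 0 and 2 above, COL25A1 with 2 and 7 reads and COL8A1 with 1 and 2 reads. Over all 6754 genes with 1 to 9 reads, 3798 lay below 0 and 2956 above. COL2A1, with 1 read in each library, lies below 0 through the scaling alone. COL16A1 had the most Vector reads of these, 8, and 0 in the other library.

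Totals gave another picture than single genes, because a few chains hold most of the reads. The 44 collagens together had 2515 reads in Vector against 2628 in the library labelled OE-UNC5B, a scaled ratio of 0.887 (0.839 to 0.937). The 5 collagens with the most reads, COL23A1, COL27A1, COL9A2, COL8A2 and COL9A3, held 81.7% of collagen reads in Vector against 91.4% in the library labelled OE-UNC5B, and their sum had a ratio of 0.991 (0.934 to 1.05). The other 39 collagens had 460 and 227 reads, a 2.39-fold lower sum (2.03 to 2.81). The 12 laminins had 474 and 466 reads, a ratio of 0.834 (0.732 to 0.950), and the 15 glycoproteins and proteoglycans had 453 and 310 reads, a ratio of 0.581 (0.501 to 0.672). The 6 members with at least 1 FPKM had a summed ratio of 0.946 (0.895 to 0.999), while the 43 other members with reads had one of 0.572 (0.518 to 0.632).

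**Figure D4:**
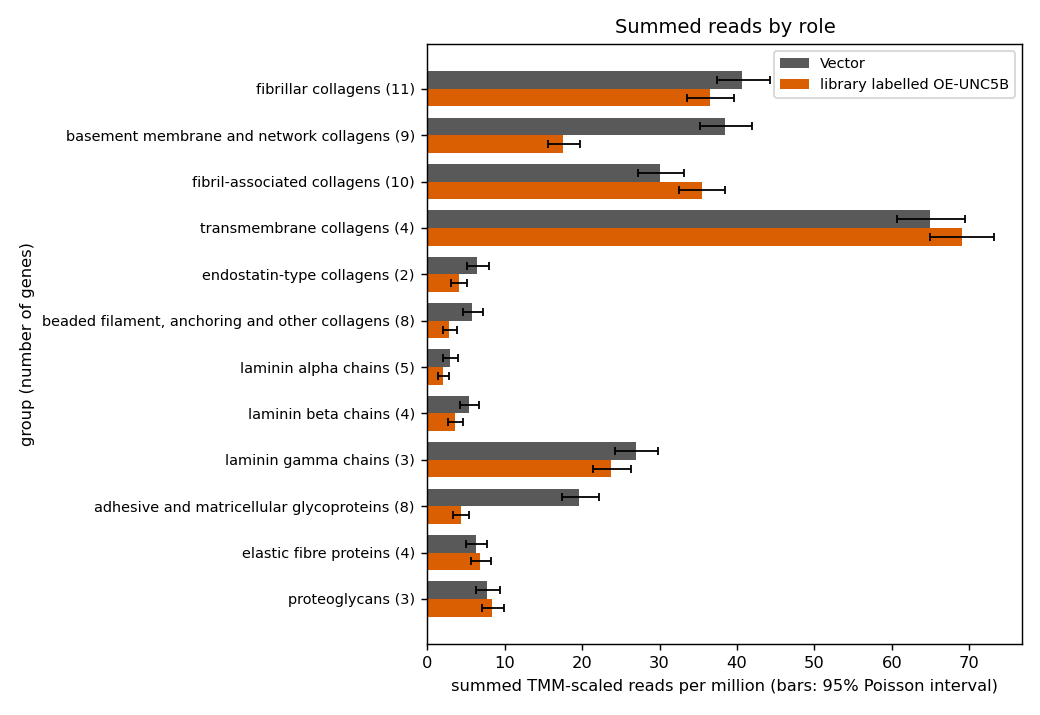
Summed TMM-scaled CPM of the 71 members in 12 role groups, 1 bar per library, with 95% Poisson intervals of the summed reads. Adhesive and matricellular glycoproteins (19.6 against 4.28) and basement membrane and network collagens (38.5 against 17.5) differ most as ratios, while transmembrane collagens (64.9 against 69.0) and laminin gamma chains (26.9 against 23.8) are close.

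Promoter sequences are shown for 6 members, because the pairs of chains above differ in their course although some share a start region. Of the 71 members, 51 had an entry in the RefSeq promoter table (GRCh38.p14). Each sequence is the 250 bases before the start that RefSeq gives, 5′ to 3′ on the gene's strand. That start is not the outer end of the locus in the deposited table, so of the windows shown only that of COL4A1 lies wholly outside its own deposited locus. The window of COL4A2 lies wholly inside its locus, and those of FN1, LAMB1, COL24A1 and COL23A1 lie partly inside. Capitals mark GGGCGG (a GC box) on either strand, with overlapping copies run together. They also mark CCAAT on either strand. The TATA box letters TATAAA were not in these 6 windows, and neither was GGAATG. FN1 and LAMB1 were far lower in the library labelled OE-UNC5B, COL4A1 and COL4A2 share a start region, COL24A1 was higher and COL23A1 was the most abundant. The windows are chr2:215436069-215436318 (FN1, minus strand), chr7:108003162-108003411 (LAMB1, minus strand), chr13:110307158-110307407 (COL4A1, minus strand), chr13:110307034-110307283 (COL4A2, plus strand), chr1:86156773-86157022 (COL24A1, minus strand) and chr5:178590394-178590643 (COL23A1, minus strand).
FN1: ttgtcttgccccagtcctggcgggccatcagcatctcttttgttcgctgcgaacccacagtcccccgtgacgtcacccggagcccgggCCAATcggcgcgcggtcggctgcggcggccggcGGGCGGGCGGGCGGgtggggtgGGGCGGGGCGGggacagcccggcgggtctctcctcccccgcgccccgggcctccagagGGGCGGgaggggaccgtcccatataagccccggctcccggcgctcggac
LAMB1: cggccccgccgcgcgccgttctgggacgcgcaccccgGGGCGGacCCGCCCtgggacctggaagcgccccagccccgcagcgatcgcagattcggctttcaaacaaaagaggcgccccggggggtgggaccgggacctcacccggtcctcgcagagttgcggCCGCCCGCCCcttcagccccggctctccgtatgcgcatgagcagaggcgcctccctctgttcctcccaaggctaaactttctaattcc
COL4A1: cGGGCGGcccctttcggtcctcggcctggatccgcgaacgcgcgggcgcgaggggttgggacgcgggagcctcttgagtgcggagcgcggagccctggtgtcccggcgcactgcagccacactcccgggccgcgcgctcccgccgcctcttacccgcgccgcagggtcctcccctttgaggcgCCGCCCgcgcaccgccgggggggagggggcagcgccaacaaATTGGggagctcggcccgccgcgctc
COL4A2: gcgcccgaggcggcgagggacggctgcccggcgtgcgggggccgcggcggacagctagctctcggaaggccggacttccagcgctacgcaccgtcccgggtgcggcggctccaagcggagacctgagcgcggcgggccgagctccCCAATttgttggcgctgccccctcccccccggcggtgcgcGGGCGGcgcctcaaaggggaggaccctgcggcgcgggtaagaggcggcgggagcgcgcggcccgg
COL24A1: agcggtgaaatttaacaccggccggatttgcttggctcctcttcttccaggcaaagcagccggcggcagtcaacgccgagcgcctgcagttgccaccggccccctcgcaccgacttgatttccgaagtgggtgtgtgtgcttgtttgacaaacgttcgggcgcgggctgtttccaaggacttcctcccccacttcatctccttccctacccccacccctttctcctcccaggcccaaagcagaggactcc
COL23A1: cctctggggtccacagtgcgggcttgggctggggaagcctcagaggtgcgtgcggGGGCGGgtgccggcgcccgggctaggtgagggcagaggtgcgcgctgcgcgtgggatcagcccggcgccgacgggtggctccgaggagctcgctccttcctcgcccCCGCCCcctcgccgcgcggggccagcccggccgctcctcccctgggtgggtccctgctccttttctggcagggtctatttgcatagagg

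The COL4A1 and COL4A2 windows share 126 bases, which hold 1 CCAAT and 1 GC box, both on the plus strand, the strand of COL4A2. FN1 had 6 GC boxes and LAMB1 had 4, COL23A1 had 2 and COL24A1 had 0. A relation between GC boxes and the differences was not tested. Over the members with an entry, 31 of 51 windows (60.8%) held GGGCGG, beside 42.6% of all 35116 promoters of that length. The members were reduced to 1 window per gene and the 35116 promoters were not, so the sets are not alike in this. CCAAT was in 27.5% of the members' windows and 32.01% of all, TATAAA in 13.7% and 10.7%, and GGAATG, the core letters bound by TEAD factors, in 11.8% and 11.9%. The median GC content was 64.4% in the members' windows and 58.0% in all. A match is a description of letters and not a binding site.

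Other genes of the matrix pathway differed little. None of the 12 collagen biosynthesis and folding enzymes with 50 or more reads, of 19 listed, differed by 2-fold, and their median log2 difference was -0.22. None of the 8 matrix proteases and inhibitors in that class differed by 2-fold (median -0.16), and none of the 14 matrix receptors, which include the integrins and CD44, did (median 0.13). Of 4 crosslinking and processing genes, ADAMTS14, a procollagen N-proteinase, was higher, with 16 reads in Vector against 50 in the library labelled OE-UNC5B (log2 difference 1.38, 0.57 to 2.32). Of 13 proteoglycans and basement membrane linkers, SDC3, a heparan sulfate syndecan, was higher, with 9 and 116 reads (3.39, 2.48 to 4.62). Of 11 TGF-beta and YAP pathway genes, TEAD3 was lower, with 167 and 97 reads (-1.02, -1.40 to -0.65). These 6 lists therefore held 1 lower and 2 higher genes with 50 or more reads, beside the background shares of 2.41% and 2.94%.

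Markers of cells that make matrix were also read, since RNA of such cells would bring matrix transcripts with it. Of 8 fibroblast and stroma markers, 4 had 0 reads in both libraries, and the list summed to 17 reads in Vector against 4 in the library labelled OE-UNC5B. DCN, POSTN, FBLN1 and PDGFRA were at 0, and TWIST1, with 11 and 2 reads, was the highest. Of 8 muscle markers, 4 were at 0 (MYH11, MYH2, CKM and TNNT3), and the list summed to 82 and 83 reads, most of it ACTA2 with 61 and 81 reads. DES had 14 reads and 1 read, and MYOG had 5 and 0 reads. Of 8 endothelial markers, 4 were at 0 (CLDN5, CDH5, TEK and KDR), and the sums of 1636 and 1478 reads came almost wholly from PECAM1, which myeloid cells express, with 1626 and 1471 reads. Of 8 HEK293T and epithelial markers, 5 were at 0 (CDH1, KRT19, PAX2, KRT8 and EPCAM), and the sums were 248 and 213 reads, of which ZIC2 gave 240 and 211. Of 6 megakaryocyte markers, 5 were at 0 and ITGA2B had 2 reads in each library. By log2 difference, 4 fibroblast and stroma markers lay below 0 and 0 above. THY1, with 1 read in each library, was among the 4 through the scaling alone. Of the muscle markers, 3 lay below 0 and 1 above, ACTA2 (0.17, -0.33 to 0.68). TWIST1 (-2.41, -5.91 to -0.50) and DES (-3.47, -9.45 to -1.33) shared the direction of COL3A1, FN1 and SPARC. So did MYOG, whose interval reached only -0.11, while ACTA2, with most of the muscle reads, did not. What part these markers had in the differences of COL3A1, FN1 and SPARC was not tested.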

How the data were processed

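RNA-seq of Molm13 cells was analysed from 2 libraries, 1 Vector and 1 labelled OE-UNC5B. Raw counts of reads for each gene, without normalization, were deposited by the authors beside FPKM. Count divided by FPKM was 1.139 to 1.140 times as high in the library labelled OE-UNC5B as in Vector, and so was its total (1.140). The submitters' processing notes name bcl2fastq 2.19, HISAT2 2.0.4, StringTie 1.3.0 and GRCh38. The counting tool, the annotation release and the use of strand are not given in the sources used here.

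Counts were scaled with TMM over the whole table (edgeR 4.0.16, R 4.3.3), and 0.5 reads were added for log2 differences. A gene was counted as lower or higher at 2-fold, in classes of 50 or more and 10 to 49 reads over both libraries, which summed to 13715566 and 15637137. Intervals are 95% Clopper-Pearson intervals (scipy 1.17.1). Code was tested on simulated data. Exon overlaps came from GENCODE 44, where all 71 members were found. Members and lists were chosen with earlier results of these data known. The rule named all members with 50 or more reads, those with 10 to 49 reads past 2-fold whose interval excluded no difference, and list genes past 2-fold with 50 or more reads. COL1A2, COL9A1, CCN1, CCN2 and other members below these limits were named after their values were seen.

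Results were recomputed with DESeq2 1.42.0 size factors, plain library totals, 2 reads added, other read minimums, FPKM with 0.1 or 1 added, other folds and leaving out members that share exon bases.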

Additional observations from a re-analysis of the deposited data

How the results depend on the processing

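No paired analysis was possible because each group had a single library, which also left no replicate to leave out. The direction rests on the labels and on 1 library each, and a gene under 50 reads has a wide counting interval.

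Library totals, DESeq2 size factors and 2 reads added left the counts of lower and higher members as they were, 4 and 0 among members with 50 or more reads and 15 and 1 among members with 10 to 49 reads. The read minimum mattered most. With a minimum of 100 reads, 3 of 10 members were lower and 0 higher, and the median log2 difference was -0.01, as over all genes with 50 or more reads, in place of -0.17. With a minimum of 10 reads, 19 of 36 members were lower and 1 higher, with a median log2 difference of -1.26, and with at least 1 read, 29 of 49 were lower and 2 higher, with a median of -1.65. Among all genes with 1 to 9 reads, the class this adds, 34.7% were lower and 32.9% higher. By construction the lower minimums add members with few reads and the higher one drops them. With the deposited FPKM and at least 1 FPKM in either library, 6 members remained for comparison, of which 2 were lower with 0.1 added and 1 with 1 added, and the median log2 difference of the 6 turned to 0.0051 and 0.016. A 1.5-fold limit gave 7 lower members with 50 or more reads, and a 4-fold limit gave 2. Among members with 10 to 49 reads, these limits gave 16 and 10 lower, and 1 and 0 higher. Shares over all genes were not computed at these limits, at 100 reads or with FPKM, so these counts stand without a background. Without the 6 members that share over 5% of their exon bases with another gene, which was chosen after seeing the data, the glycoproteins had a summed ratio of 0.703. CCN3, CCN2 and THBS1 are the glycoproteins left out there.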
